A study of Rattus norvegicus with 16 samples.

Results

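Atp1b2 and Atp1b3 encode the beta 2 and beta 3 subunits of the sodium-potassium ATPase, the pump that moves sodium out of the cell and potassium into it. The genes were found as every probe set whose only platform gene symbol was Atp1b2 or Atp1b3. This gave 2 of the 549 genes named on the array and 3 of its 972 gene probe sets: D84450_at for Atp1b3, and D90048exon_at and D90048exon_g_at for Atp1b2. They were picked with earlier results of these arrays known, namely their difference between the treatments and their low values on DMSO control 3, so their values are given as a description and without a p-value.

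The samples were cultures of NG108, a single line that is labelled rat neuronal and that is known to descend from a fusion of mouse neuroblastoma with rat glioma cells. The 8 control samples were exposed to 0.25% dimethyl sulfoxide (DMSO), and the 8 treated samples to mefloquine at 4400 ng/ml. Mefloquine is a malaria drug known for its neuropsychiatric side effects. Both exposures lasted 2 hours, and 10 µg of total RNA was hybridised to each Affymetrix rat array. The labels do not say whether the mefloquine samples also held DMSO, and how well the rat probes measure mouse transcripts was not tested. The comparison asks how far the transcripts of the pump's beta subunits differed between drug-treated and control cells.

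The pump works as a complex of a catalytic alpha subunit, which binds the ions and splits ATP, and a glycosylated beta subunit that crosses the membrane a single time. The beta subunit is needed for the alpha subunit to fold, leave the endoplasmic reticulum and reach the cell surface. In the nervous system the ion gradients made by the pump carry the resting potential, and the beta 2 protein is also known as the adhesion molecule on glia (AMOG), through which glial cells contact neurons.

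D84450_at and D90048exon_at, though not D90048exon_g_at, had their 3 lowest values on the same 3 arrays. So did 46 of the 545 tested probe sets (8.44%), these included. The 3 arrays came from both treatments and differed from the rest on array measures given below. Whether promoter sequence had a part in the low values was not tested. As a description only, the 250 bases upstream of each RefSeq gene start are shown. They run 5′ to 3′ in the direction of the gene and come from RefSeq's rat assembly GRCr8. Both genes lie on the minus strand, Atp1b2 at chr10:54823709-54823958 and Atp1b3 at chr8:105821152-105821401. Capitals mark the letters of 3 promoter motifs, searched on both strands: the GC box (GGGCGG, or CCGCCC on the opposite strand), the TATA box (TATAAA) and the CCAAT box (CCAAT, or ATTGG on the opposite strand).
Atp1b2: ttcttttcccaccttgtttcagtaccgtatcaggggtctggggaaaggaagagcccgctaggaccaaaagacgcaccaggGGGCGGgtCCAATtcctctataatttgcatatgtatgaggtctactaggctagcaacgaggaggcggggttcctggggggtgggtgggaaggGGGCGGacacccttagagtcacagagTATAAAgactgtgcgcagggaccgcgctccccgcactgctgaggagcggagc
Atp1b3: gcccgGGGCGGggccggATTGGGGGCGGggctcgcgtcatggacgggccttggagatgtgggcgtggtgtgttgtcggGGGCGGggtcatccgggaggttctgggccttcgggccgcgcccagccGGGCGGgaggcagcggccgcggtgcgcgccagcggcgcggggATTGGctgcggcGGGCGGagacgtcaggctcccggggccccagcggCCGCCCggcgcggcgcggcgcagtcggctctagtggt

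The windows differ in composition. The Atp1b3 window is 79.6% G and C, with 6 GC boxes, 2 CCAAT boxes and no TATAAA. The Atp1b2 window is 58.0% G and C, with 2 GC boxes, 1 CCAAT box and 1 TATAAA, which begins 52 bases before the annotated start. In the Atp1b3 window 1 CCAAT box adjoins a GC box without overlap. Of the 33469 upstream windows of this length in the RefSeq table, 30.5% held a GC box, 34.0% a CCAAT box and 12.9% TATAAA. These matches are letters only, since no factor's binding was measured here.

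Before the values, 3 arrays have to be set apart. On the log2 scale over the 545 tested probe sets, each array's median correlation with the others was 0.855 for DMSO control 3, 0.901 for mefloquine 1 and 0.913 for mefloquine 2, against 0.925 to 0.945 for the remaining 13. DMSO control 3 had a beta-actin 3′ over 5′ signal ratio of 21.3, a measure of RNA quality, where mefloquine 1 and 2 had 1.70 and 1.95 and the 13 other arrays 1.31 to 2.67. The 3 arrays also had the strongest spike-in controls, at a mean intensity of 62892, 45388 and 42767 against 15970 to 31159. The treatment difference of each beta subunit probe set is therefore given below with and without them. An array's median intensity over gene probe sets ran from 461 (DMSO control 3) to 665, and precision is limited by having 8 arrays in a group.

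Atp1b3, the beta 3 subunit, was measured well above the floor on all 16 arrays (the floor is an intensity of 427, the 25th percentile of all positive values, to which lower values were set before log2 was taken). The lowest, median and highest DMSO values of D84450_at were 1814, 2884.5 and 3223. The mefloquine values were 1582, 2703 and 3202. The groups overlapped, and the low values in both came from the arrays that stood apart: DMSO control 3 at 1814, mefloquine 1 at 1582 and mefloquine 2 at 1864, with no other array under 2466.

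The mean Atp1b3 intensity was 2798 ± 421 in DMSO and 2522 ± 541 in mefloquine samples (SD, n = 8 each). On the log2 scale the difference, mefloquine minus DMSO, was -0.17 ± 0.15 (SE; 95% interval -0.49 to 0.16). Without DMSO control 3 the DMSO values spanned only 2779 to 3223, with a mean of 2939 ± 149 (SD, n = 7). The difference then was -0.25 ± 0.14 (SE; 95% interval -0.54 to 0.03), with 6 of 8 mefloquine arrays below the lowest remaining DMSO array. Leaving out mefloquine 1 and 2 as well brought the mefloquine mean to 2788 ± 247 (SD, n = 6) and the difference to -0.08 ± 0.08 (SE; 95% interval -0.24 to 0.08). The size of the Atp1b3 difference thus followed these arrays: it was -0.07 without mefloquine 1 alone and -0.11 without mefloquine 2 alone.

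**Figure D1:**
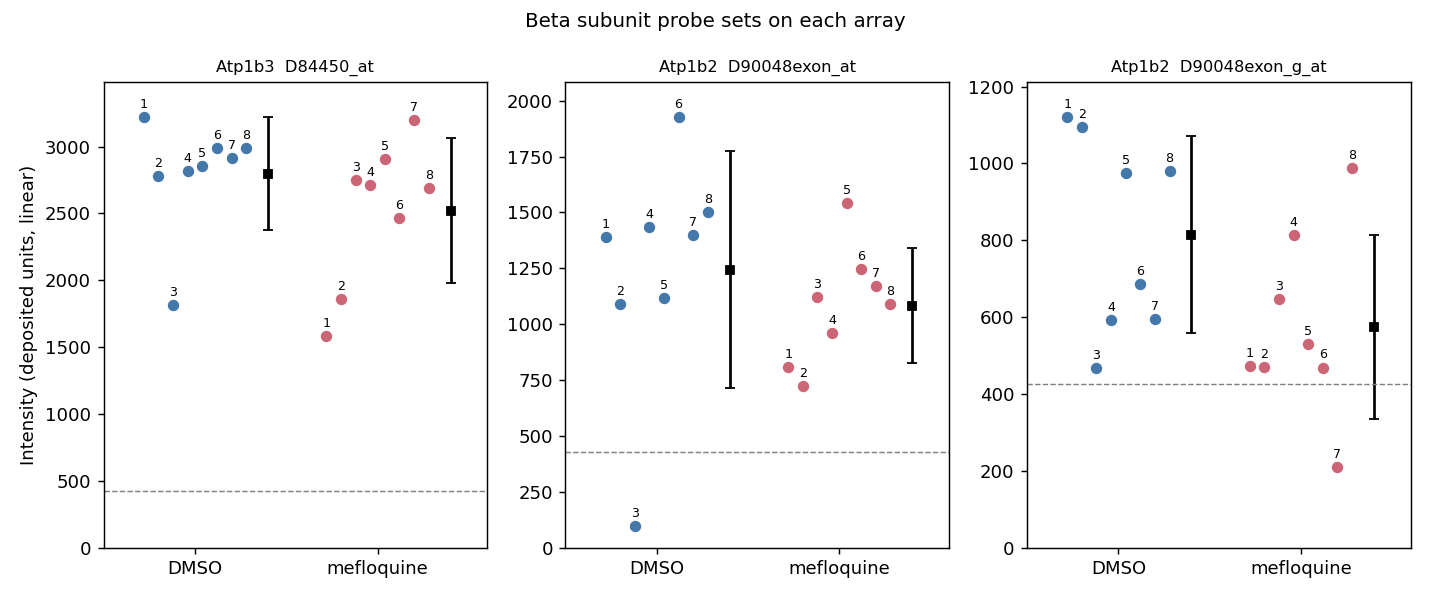
Intensity of the 3 probe sets (vertical axes, linear deposited units, each from 0) on every array, with points numbered by replicate, DMSO in blue and mefloquine in red; black squares and bars are the mean and SD of 8 arrays, and the dashed line is the floor of 427. For Atp1b3, DMSO 3 and mefloquine 1 and 2 lie between 1582 and 1864 while the other 13 arrays lie between 2466 and 3223.

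Atp1b2, the beta 2 subunit, was measured by 2 probe sets made from the same sequence record (D90048), which may share probes and are not independent. On D90048exon_at, the brighter one, the lowest, median and highest DMSO values were 98.1, 1393.5 and 1928, and the mefloquine values 724, 1106 and 1543. DMSO control 3 alone lay under the floor, and all 8 mefloquine arrays fell inside the range of the DMSO arrays. The means were 1244 ± 530 and 1083 ± 258 (SD, n = 8 each), and the log2 difference was -0.18 ± 0.25 (SE; 95% interval -0.70 to 0.34). This value depended on how the single dim DMSO value was treated: with the floor at the 10th percentile of positive values (154) it was 0.00 ± 0.40 (SE), slightly above 0.

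Without DMSO control 3, the D90048exon_at values of the DMSO arrays ran from 1091 to 1928, with a mean of 1408 ± 279 (SD, n = 7), and 3 of 8 mefloquine arrays lay below the lowest of them. The log2 difference then was -0.39 ± 0.16 (SE; 95% interval -0.73 to -0.05), farther from 0 than the -0.18 over all arrays. Without the 3 arrays that stood apart it was -0.24 ± 0.14 (SE; 95% interval -0.54 to 0.07), with a mefloquine mean of 1189 ± 198 (SD, n = 6). It was -0.08 without DMSO control 6, the highest array, and -0.10 without mefloquine 2.

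On D90048exon_g_at, the dimmer Atp1b2 probe set, the lowest, median and highest DMSO values were 467, 830 and 1121, and the mefloquine values 209, 502 and 987. The groups overlapped, although 7 of 8 mefloquine arrays lay below the DMSO mean, and mefloquine 7 was under the floor. DMSO control 3 and mefloquine 1, 2 and 6 lay together between 467 and 473, so on this probe set the arrays that stood apart were not separate from all others. The means were 814 ± 256 and 575 ± 239 (SD, n = 8 each).

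The log2 difference of D90048exon_g_at was -0.43 ± 0.22 (SE; 95% interval -0.89 to 0.03), 1.35 times lower with mefloquine on the floored scale. It was -0.53 ± 0.21 (SE; 95% interval -0.98 to -0.09) without DMSO control 3 and -0.44 ± 0.23 (SE; 95% interval -0.93 to 0.05) without the 3 arrays. Of the 3 probe sets this one had the largest difference and lay closest to the floor. In 31 of 31 alternative fits that tested it the difference was below 0, from -0.56 to -0.32. These fits share arrays and the gene was chosen on this contrast, so the count of fits is a description only.

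Over the whole table, 7 of 545 tested probe sets (1.28%) passed limma's test at a Benjamini-Hochberg adjusted p under 0.05, and 0 of the 3 beta subunit probe sets were among them. With all arrays 0 of the 3 intervals excluded 0, as against 4.22% of all tested probe sets. Without DMSO control 3, 1.12% of tested probe sets passed and again 0 of the 3, while both Atp1b2 intervals and 8.01% of all intervals excluded 0. Without the 3 arrays 0.928% passed, 0 of the 3 passed, and 0 of the 3 intervals excluded 0. As the genes were chosen on this contrast, these counts describe them and carry no further weight. The intervals over all 16 arrays leave out a change of 2 times or more in either direction for each of the 3 probe sets on the floored scale. With the floor at the 10th percentile this no longer held for D90048exon_g_at, whose interval then ran from -1.15 to 0.04.

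The groups did not overlap for 3 of the 545 tested probe sets (0.55%), and for none of the 3 beta subunit probe sets. Over the 545 probe sets the median difference was -0.01, and 53.6% of them were below 0. Without DMSO control 3, 62.8% were below 0, so lower values with mefloquine became more common over the whole array, not only for these genes. In bulk RNA, fewer cells that make a transcript and less of it per cell cannot be told apart.

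**Figure D2:**
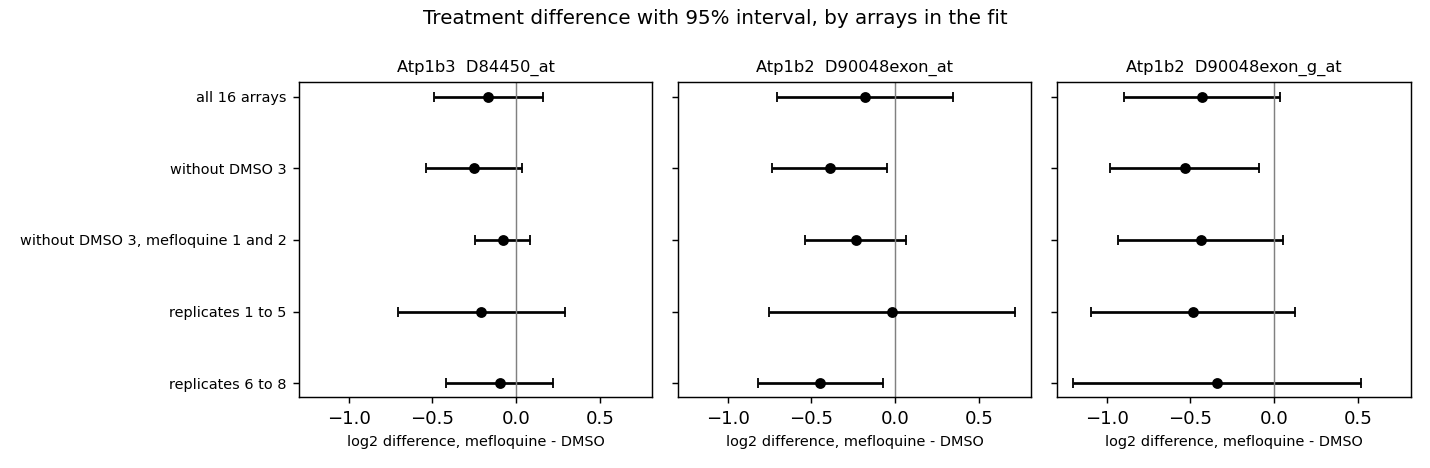
Log2 difference, mefloquine minus DMSO (horizontal axes; points, with 95% intervals as bars), of the 3 probe sets by the arrays that entered the fit. The points lie between -0.02 and -0.53, and 3 of the 15 intervals end below 0: those of both Atp1b2 probe sets without DMSO 3 and of D90048exon_at in replicates 6 to 8.

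From earlier results the arrays numbered 6 to 8 are known to differ from those numbered 1 to 5 in both groups, so the differences were also taken within each range. Atp1b3 was at -0.21 ± 0.23 (SE) in replicates 1 to 5, which hold all 3 arrays that stood apart, and at -0.10 ± 0.13 in replicates 6 to 8. D90048exon_at was at -0.02 ± 0.34 in replicates 1 to 5 and at -0.45 ± 0.16 in replicates 6 to 8, where its 3 mefloquine arrays (1092 to 1247) lay below its 3 DMSO arrays (1399 to 1928). D90048exon_g_at was at -0.48 ± 0.28 and -0.34 ± 0.36, with mefloquine 8 above and mefloquine 6 and 7 below all 3 DMSO arrays of the second range. The interval of the difference between the ranges held 0 for each probe set, and was widest for D90048exon_g_at (-0.87 to 1.16).

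On the 3 arrays that stood apart, the 3 probe sets lay at 55.5% to 69.1% of their usual level in the mefloquine samples and were farther from each other in the DMSO sample. Relative to the median of the other 13 arrays, Atp1b3 stood at 55.5% on mefloquine 1, 65.3% on mefloquine 2 and 63.6% on DMSO control 3. D90048exon_at stood at 64.8%, 58.1% and 7.87%, and D90048exon_g_at at 69.1%, 68.7% and 68.1%. DMSO control 3 thus took the brighter Atp1b2 probe set far lower than the other 2 probe sets.

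Many other probe sets were low on these arrays too. All 3 arrays were the 3 lowest of 16 for 46 of the 545 tested probe sets (8.44%), among them D84450_at and D90048exon_at. DMSO control 3 was the lowest DMSO array for 247 probe sets (45.3%), all 3 of the beta subunits included. On that array 9.17% of the tested probe sets lay as far below their 13-array median on the floored log2 scale as D90048exon_at or farther, 31.0% as far as Atp1b3 and 36.7% as far as D90048exon_g_at. D90048exon_at was at the floor there, so its share was taken at the floored value and not at the measured 98.1. On mefloquine 1 the share as far down as Atp1b3 was 10.6%, and on mefloquine 2 it was 16.3%. With the GAPDH 3′ over 5′ ratio, another measure of RNA quality, as a covariate over all 16 arrays, the treatment difference was -0.26 ± 0.13 (SE; 95% interval -0.53 to 0.02) for Atp1b3, -0.38 ± 0.16 (SE; 95% interval -0.73 to -0.03) for D90048exon_at and -0.50 ± 0.22 (SE; 95% interval -0.97 to -0.04) for D90048exon_g_at. These values lie close to those without DMSO control 3, whose GAPDH ratio was 4.62 against 1.02 to 1.48 on the other 15 arrays. The part of spike-in strength in the low values was not tested.

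**Figure D3:**
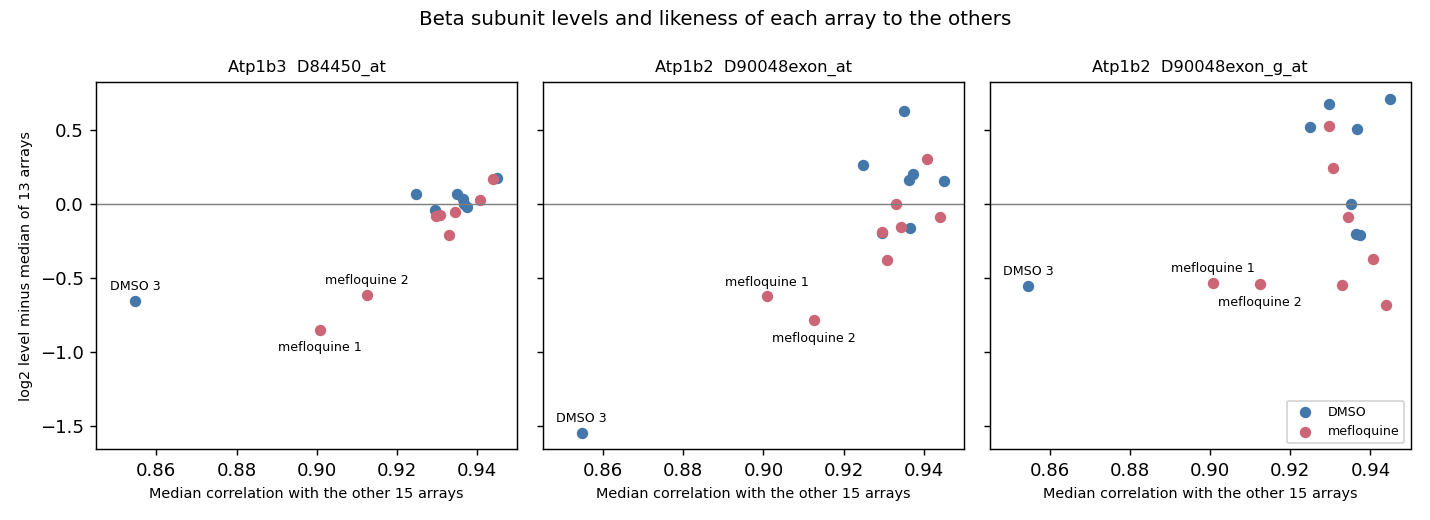
Floored log2 level of each probe set minus its median over 13 arrays (vertical axes) against the array's median correlation with the other 15 arrays (horizontal axes), DMSO in blue and mefloquine in red. The 3 named arrays, with correlations of 0.855 to 0.913, all lie below the line at 0, from -0.53 to -1.55.

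Among the other 13 arrays the correlations between the probe sets were weak or negative. After each group's mean was subtracted, the correlation over these arrays was -0.53 (Spearman -0.46) between the 2 Atp1b2 probe sets, 0.28 (0.36) between Atp1b3 and D90048exon_at, and -0.11 (-0.10) between Atp1b3 and D90048exon_g_at. These are descriptions over n = 13 arrays that share their scaling. The pair of Atp1b2 probe sets split the arrays differently: DMSO control 6 was highest on D90048exon_at at 1928 but only 685 on D90048exon_g_at, and mefloquine 8 was high on D90048exon_g_at at 987 but at 1092 on D90048exon_at. The spread relative to the mean was 15.04% in DMSO and 21.4% in mefloquine samples for Atp1b3, 42.6% and 23.9% for D90048exon_at, and 31.5% and 41.6% for D90048exon_g_at. Without DMSO control 3 the DMSO spread was 5.07%, 19.8% and 26.8%. Atp1b3 was the steadiest of the 3 in each group, with or without that array.

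**Figure D4:**
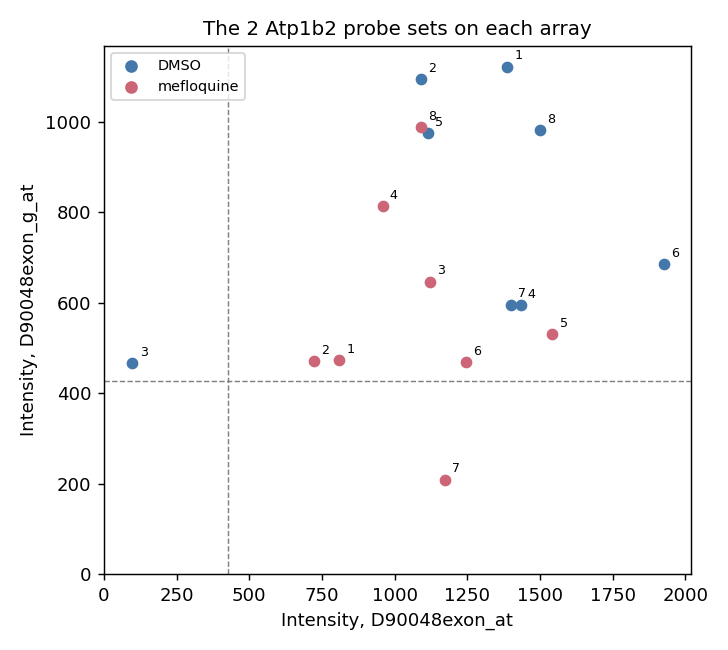
Intensity of D90048exon_g_at (vertical axis) against D90048exon_at (horizontal axis) on the 16 arrays, numbered by replicate, DMSO in blue and mefloquine in red, with the floor of 427 dashed on both axes. The 2 probe sets order the arrays differently, and 1 array lies under the floor on each: DMSO 3 at 98.1 on D90048exon_at and mefloquine 7 at 209 on D90048exon_g_at.

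The genes whose pattern was most like each beta subunit were taken as the 5 singly named probe sets of other genes with the highest Pearson correlation over the 15 arrays without DMSO control 3, after subtraction of group means. For Atp1b3 the first was Canx, a chaperone of glycoproteins in the endoplasmic reticulum, at 0.93 and 0.91 by 2 of its probe sets, followed by C8h15orf61 at 0.88, the TGF-beta co-receptor Tgfbr3 at 0.87 and the biliverdin reductase Blvra at 0.86. For Atp1b2 (D90048exon_at) they were Canx at 0.84 by another probe set, the cyclooxygenase Ptgs2 at 0.805, the cell cycle kinase Wee1 at 0.80, the respiratory complex I subunit Ndufs7 at 0.79 and the disulfide isomerase Pdia4 at 0.78. The median over all 462 and 461 candidates was 0.09 and 0.02, and the other beta subunit stood at 0.66. A correlation over 0.8 was reached by 23 of the 462 for Atp1b3 and by 3 of the 461 for Atp1b2. The genes named for Atp1b3 are thus the top of a larger group.

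This likeness was smaller without mefloquine 1 and 2, more so for Atp1b3 than for Atp1b2. Over the 13 arrays without them and DMSO control 3, the correlations of the same probe sets with Atp1b3 were 0.62 and 0.35 for Canx, 0.34 for C8h15orf61, 0.09 for Tgfbr3 and 0.22 for Blvra. Those with Atp1b2 were 0.70 for Canx, 0.67 for Ptgs2, 0.72 for Wee1, 0.67 for Ndufs7 and 0.61 for Pdia4. With all 16 arrays the correlations with Atp1b3 were 0.90 and 0.21 for Canx, 0.92 for C8h15orf61, 0.81 for Tgfbr3 and 0.91 for Blvra. Those with Atp1b2 were then 0.54 for Canx, 0.85 for Ptgs2, 0.78 for Wee1, 0.27 for Ndufs7 and 0.93 for Pdia4. None of these probe sets passed limma's test between the treatments (adjusted p from 0.982 to 0.998).

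Of the 146 symbols (older names included) listed for the rest of the pump and for ion transport, 1 had a singly named probe set here. No catalytic alpha subunit, other beta subunit, FXYD regulator or other ATP-driven pump of the lists was among them, so the level of the beta subunits could not be set beside that of their partners. The gene measured was Kcnj8, a subunit of ATP-sensitive potassium channels. Its lowest, median and highest values were 494.7, 545 and 792 in DMSO and 172, 512 and 1020 in mefloquine samples (1019.7 on mefloquine 1). It did not pass limma's test (log2 difference -0.07 ± 0.17, SE; adjusted p = 0.997), so that 0 of 1 tested gene of the lists passed, and 0 of 1 had an unadjusted p under 0.05. Without the 3 arrays that stood apart its log2 difference was -0.28, and it again did not pass (limma's adjusted p = 0.929). Where the beta subunits were low on mefloquine 1, Kcnj8 was thus at its highest.

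The neuronal label could not be checked, since none of the 17 neuronal markers had a probe set with a single symbol here. Of the 11 glial markers 2 had one: Vim, an intermediate filament, and Clu, a secreted chaperone. Their summed level ran from 16042 to 21447 in DMSO and from 13742 to 23182 in mefloquine samples. Most of it was Vim, with a DMSO mean of 16895 against 1867 for Clu. Clu was at 1081 on DMSO control 3, 819 on mefloquine 1 and 873 on mefloquine 2, against medians of 1875 in DMSO and 1738 in mefloquine samples, while Vim was at its DMSO maximum of 19883 on DMSO control 3. Of 5 fibroblast markers 2 were measured, Col3a1 under the floor on all 16 arrays, and Col1a1, which summed with it ran from 1139 (DMSO control 3) to 2928 in DMSO and from 1722 to 2607 in mefloquine samples. No marker of the blood and immune, muscle or liver and kidney lists had such a probe set, and the part of other cells in the beta subunit levels was not tested.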

How the data were processed

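The authors deposited linear intensities, 1 column per array, scaled with standard Affymetrix chip factors and otherwise untransformed, per the labels. Sample titles gave the group and the replicate number. Nothing says that the samples came from separate cultures, so errors and p-values reflect a spread among samples that may be technical only.

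Values below 427 (the 25th percentile of positive values) were set to it, and log2 was taken. Probe sets above it on at least 8 of 16 arrays were tested (545 of 972, all 3 of the beta subunits). With limma 3.58.1 (R 4.3.3; lmFit, eBayes) a model of treatment alone was fitted, after it had been checked on simulated data. Errors and intervals come from this fit. Probe sets were named through the platform annotation. The members, gene lists and marker lists were chosen with earlier results of these data known. Text names every subunit of the pump with a probe set, up to 3 genes of each other list and the 5 most alike probe sets. Promoter sequences came from RefSeq (GRCr8), where both genes matched by symbol. The table has no genome build.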

Additional observations from a re-analysis of the deposited data

Results flagged for a closer look

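Within each group of 8 arrays, the highest and lowest value of each beta subunit probe set, each listed or marker gene and 3 array measures was compared, by Dixon's ratio of gap to range, with the array next to it. A gap was found in 8 of 24 groups checked, and DMSO control 3 accounted for 7 of the 8. Col3a1, under the floor on every array, had no range on the floored scale, so its groups could not be flagged. Chance alone flags about 5% of independent groups. The groups checked share arrays, and the genes were chosen with the low values of DMSO control 3 known. The count is thus a description only. On the floored log2 scale that array was far below the other DMSO arrays for Atp1b3 (10.82, next 11.44) and for Atp1b2 by D90048exon_at (8.74, the floor, next 10.09), as it was for Clu (10.08) and the brighter Col1a1 probe set (10.25). On the dimmer Col1a1 probe set its intensity of 794 was close to the DMSO median of 795. Over all tested probe sets it was far below the other DMSO arrays for 90 (16.5%) and far above them for 26 (4.77%). Its log2 ratio of 3′ over 5′ signal was 4.42 for beta-actin and 2.21 for GAPDH, the highest of the DMSO arrays, and its median correlation of 0.855 was the lowest. The remaining value was Kcnj8 on mefloquine 1, at 9.99, far above the other mefloquine arrays (next 9.33).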

How the results depend on the processing

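Over all alternatives that tested it, Atp1b3 stayed below 0 in 33 of 33 fits (-0.26 to -0.07). D90048exon_at did in 31 of 32 (-0.45 to 0.00, with -0.18 in the main fit) and D90048exon_g_at in 31 of 31. The fits share arrays and the genes were chosen on this contrast, so these counts are a description only. Each difference moved by less than the SD between replicates (0.30, 0.52 and 0.46). That is a loose limit, since the SE of the differences was 0.15, 0.25 and 0.22. With 1 array left out at a time the 3 differences ran from -0.25 to -0.07, from -0.39 to -0.08 and from -0.54 to -0.35. With all 16 arrays the D90048exon_g_at interval excluded 0 with array weights (-0.90 to -0.05), as both Atp1b2 intervals did with the GAPDH ratio as a covariate. The D90048exon_g_at interval also excluded 0 without DMSO control 3, without mefloquine 4 (-0.98 to -0.02) and without mefloquine 8 (-0.98 to -0.10). It held 0 when any other single array was left out. D90048exon_g_at was not tested with the floor at the 40th percentile, nor was either Atp1b2 probe set when all arrays had to lie above the floor. The count of called probe sets over the table was 7 in the main fit. It was 4 with quantile normalization, with the floor at the 10th or 40th percentile and with an offset in place of the floor. It was 3 with all arrays above the floor, 6 in replicates 1 to 5 alone and 1 in replicates 6 to 8 alone. What caused these changes was not tested. With 1 array left out the count of called probe sets ran from 4 to 8, with 4 without DMSO control 2, 6, 7 or 8 or mefloquine 3 or 4. Kcnj8 was called in 0 of 33 fits. With the replicate number as a block 8 probe sets were called, and the differences of the beta subunits were the same by construction. Same-numbered samples deviated together, with a correlation over 0.1, in 7 of 8 pairs (0.06 to 0.59), and 2 of the 8 DMSO arrays correlated best with their own number, so the numbers were not taken as pairs. Fits without the 3 arrays with a block for the replicate ranges or with quantile normalization were chosen after seeing the data. They gave -0.08 and -0.07 for Atp1b3, -0.25 and -0.26 for D90048exon_at, and -0.42 and -0.38 for D90048exon_g_at.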

Other observations

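Over the 13 arrays without DMSO control 3 and mefloquine 1 and 2, a choice made after the data had been seen, the most alike probe sets were largely other ones: 1 of 5 was shared with the 15-array list for Atp1b3 and 2 of 5 for Atp1b2. For Atp1b3 they were the intermediate filament gene Vim (0.78), the growth factor Tgfb2 (0.74), Canx (0.62), the pituitary hormone subunit Cga (0.61) and the cytochrome P450 reductase Por (0.61). For Atp1b2 they were the kinase Mapk7 (0.78), the efflux transporter Abcc2 (0.73), Wee1 (0.72), the DNA repair enzyme Mgmt (0.71) and Canx (0.70). Canx was the gene listed for both subunits over both sets of arrays, but by a different probe set for each subunit. The 13 arrays are part of the 15, and Atp1b2 here stands for D90048exon_at only. Another Canx probe set, at 0.91 with Atp1b3 over the 15 arrays, was at 0.35 over the 13.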
